A study of Mus musculus with 2 samples.

Results

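The nuclei described here were defined by genes of the cochlear epithelium, with Otoa and Rspo2 in the lead. A nucleus belonged if it had at least 500 genes and at most 15000 unique molecular identifiers (UMIs, each standing for 1 captured transcript), of which at most 5% mitochondrial. It also had to hold a UMI of at least 3 of the 6 genes Otoa, Rspo2, Trdn, Cadm2, Rasl12 and Gpc5, with Otoa or Rspo2 among them. Nuclei with any UMI of Ano1, or with 2 or more of the 4 hair cell genes Myo3a, Dytn, Loxhd1 and Strip2, were left out. The rule selected 405 of the 19339 nuclei that passed the filters. Because these 11 genes chose the nuclei, their levels are given as a description.

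The data are single-nucleus RNA counts from mouse cochleae at postnatal day 7, after tamoxifen at day 1. The Serpine2 cOE library was made from 20 pooled cochleae of Lgr5EGFP-CreER/+ Serpine2 loxp/loxp mice, in which Cre is driven from the Lgr5 locus. The control library was made from 19 pooled cochleae of Serpine2 loxp/loxp mice without the driver, so both groups carry the loxP alleles. The labels do not say how recombination of these alleles acts on Serpine2. Each group is therefore 1 library. No test between groups was possible, and every interval below is a 95% interval for counting error only. It leaves out variation between animals and, for gene levels, variation between nuclei. Of 12014 cOE and 9820 control barcodes, 10567 and 8772 passed the filters. The libraries shared 27 barcodes, and 1 cOE member and 0 control members carried such a barcode. Doublets were not removed beyond the limits of the rule, and 49 cOE and 20 control members had top Scrublet doublet scores.

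Interdental cells line the spiral limbus, the ridge of connective tissue at the inner edge of the organ of Corti. They secrete matrix and anchor the tectorial membrane, the gel above the hair bundles. Otoancorin, the product of Otoa, sits at their apical surface where the tectorial membrane attaches. R-spondin 2, the product of Rspo2, is a secreted protein that strengthens Wnt signalling through Lgr receptors.

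The 295 cOE members held 1108805 UMIs and the 110 control members 511664, with medians of 2952 and 3292.5 UMIs per nucleus. Levels are given in CPM, the UMIs of a gene per 1000000 UMIs summed over these nuclei in a library. A gene with 0 UMIs could still stand at 2.71 CPM in cOE members and 5.86 in control, the level of 3 counts. Otoa stood at 887 CPM in cOE members and 891 CPM in control members, against 57.3 and 38.9 CPM in the other nuclei of the same libraries. Its UMIs per nucleus had a lowest value of 0, a median of 2 and a highest of 22 in cOE, and 0, 3 and 16 in control. Rspo2 stood at 618 in cOE and 442 CPM in control members.

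Of the other genes required, Trdn, which encodes triadin of the calcium release apparatus of muscle, stood at 285 CPM in cOE members and 266 in control. Cadm2, a cell adhesion molecule of the immunoglobulin family, was the most abundant, with 1268 in cOE and 1016 CPM in control. Gpc5, a glypican that carries heparan sulphate chains, had 824 CPM in cOE members and 475 in control, and Rasl12, a Ras-like gene, had 156 and 106 CPM. The hair cell genes, which could be present singly, were sparse: Strip2 had 7 UMIs in cOE and 1 in control, and Myo3a 5 and 2.

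Sox10, a transcription factor of the otic epithelium and of neural crest cells, was a marker of these nuclei that the rule did not use. It stood at 375 CPM in cOE members against 176 CPM in other nuclei (log2 ratio 1.09), and at 270 CPM in control members against 139 CPM (log2 ratio 0.96). After each nucleus was thinned to 1000 UMIs, 37.5% of cOE and 24.8% of control members had a Sox10 UMI, against 9.55% and 5.83% of nuclei in a macrophage gate that should lack it. Without thinning these shares were 68.1% and 61.8% of members, against 25.2% and 23.9% of macrophage nuclei, whose medians were 2382 and 2300 UMIs. The macrophage gate was not cleared of nuclei that also met other gates, so its levels are not pure background. Myo3a of hair cells stood at 143 CPM there in cOE and 79.4 in control, in 6.75% and 5.96% of macrophage nuclei. Sox10 did not set the members apart from other epithelial gates: nuclei of the same rule with Ano1 had 365 CPM in cOE and 443 in control, and a pillar and Deiters cell gate had 350 and 395 CPM. Of control nuclei, 39.3% in the Ano1 set and 32.7% in the pillar and Deiters gate had a Sox10 UMI after thinning, above the control members. For Otoa the thinned shares were 58.0% of cOE and 56.9% of control members, against 1.91% and 2.43% of the macrophage nuclei.

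Markers of interdental cells outside the rule bore out the label only in part. Otogl, which encodes an otogelin-like matrix protein, had 506 CPM in cOE members against 287 CPM in other nuclei, and 465 CPM in control members against 210 CPM. Ceacam16, a tectorial membrane protein of interdental cells, had 8 UMIs in cOE members and 0 in control members. It was seen in 2.37% of cOE members against 0.35% of other nuclei, and in control in 0% against 0.31%. Tecta, encoding alpha-tectorin, was lower in members than in other nuclei, with log2 ratios of -1.13 in cOE and -0.83 in control. The connexin genes Gjb2 and Gjb6 were lower as well, Gjb6 with log2 ratios of -1.16 and -1.08. Otog was lower in cOE members (-0.81) and close to the other nuclei in control (0.06). Of these 6 markers Otogl was thus the only one above the other nuclei in both libraries. Otogl did not set the members apart from other epithelial gates. After thinning, 30.7% of cOE and 33.0% of control members had an Otogl UMI. In the pillar and Deiters gate 69.8% and 52.2% had one, and in the Ano1 set 28.7% and 35.7%. The nuclei are called Otoa/Rspo2 nuclei or members here.

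The members fell into several clusters. When all nuclei were clustered together, members were found in 12 of 22 clusters. A leading cluster held 227 of the 295 cOE members (76.9%, 71.7% to 81.6%) and 64 of the 110 control members (58.2%, 48.4% to 67.5%). Its 10 top genes were Ttll6, Trdn, 4933411O13Rik, Rspo2, Gm10648, Rasl12, Otoa, Cadm2, Cntn1 and Myh6. A second cluster, led by genes such as Cndp1, Tmem72, Otx2os1, Dach2 and Slc26a7, held 29 cOE (9.83%) and 22 control members (20.0%). A further 20 cOE and 13 control members lay in a cluster led by Il1rapl2, in which 197 of 399 cOE and 95 of 241 control nuclei had top Scrublet doublet scores. Members in clusters other than the leading one thus made up a larger share in control, and for many results below the value inside the leading cluster is given as well.

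Otx2, Oc90, Dkk2 and Stim2 were far higher in members outside the leading cluster than in those inside it. Otx2, a homeobox gene of the roof epithelium, had 2.96 in cOE and 9.44 CPM in control members inside, but 210 and 170 CPM outside. Oc90, which encodes the otoconial protein otoconin-90, had 50.3 and 85.0 CPM inside and 353 and 837 CPM outside. Both genes were thus carried mainly by members outside the leading cluster, and the same held for Dkk2, which encodes a secreted Wnt modulator. Dkk2 had 19.2 CPM in cOE members and 14.2 in control inside, against 1281 and 850 CPM outside. Stim2, a calcium sensor of the endoplasmic reticulum, had 133 and 156 CPM inside, against 2313 and 2174 CPM outside. In the other direction, Slit3 had 3024 and 5978 CPM inside, against 429 and 133 CPM outside. Nfib had 4176 and 4443 CPM inside and 1274 and 1127 CPM outside.

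**Figure D1:**
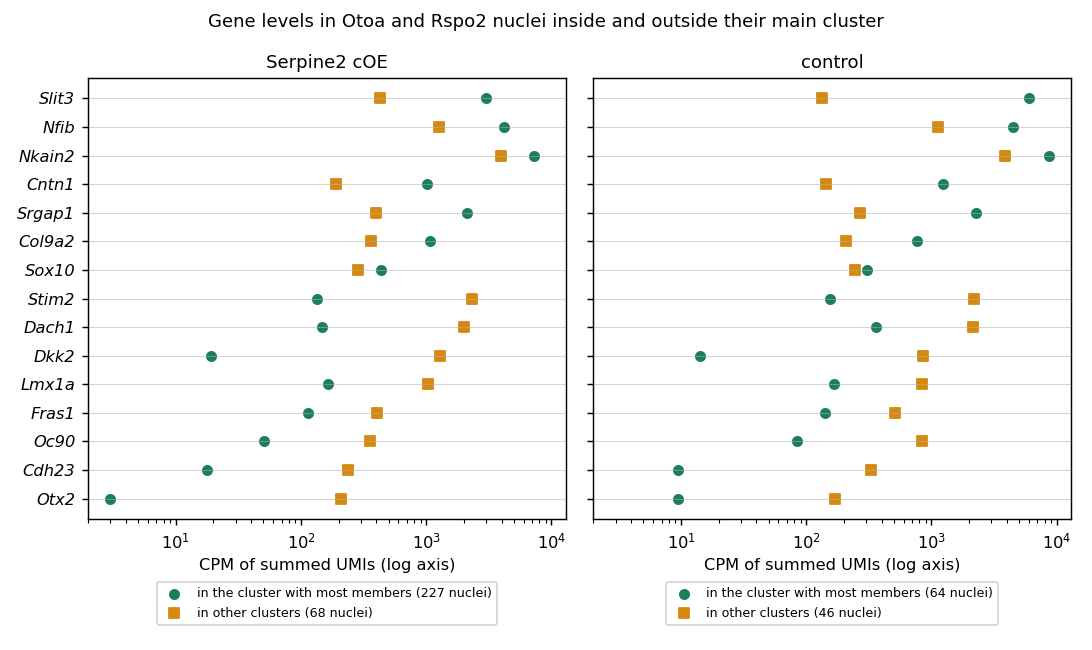
Levels of 15 genes (CPM of summed UMIs, log axis) in Otoa/Rspo2 nuclei of the Serpine2 cOE library (left) and the control library (right); circles are nuclei in the cluster with most members, squares those in other clusters. The genes down to Sox10 lie further right inside the cluster and those from Stim2 to Otx2 further right outside it, in both libraries.

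The number of the 6 genes that a nucleus held went along with this split. The 6 genes were not taken out before clustering. Trdn, Rspo2, Rasl12, Otoa and Cadm2 were among the leading cluster's top genes, so the split is not independent of the rule. The shares are given as a description. Of the 100 cOE members with exactly 3 of the genes 59.0% lay in the leading cluster, and of the 49 control members with exactly 3, 32.7%. With all 6 genes it was 93.9% of 33 cOE and 83.3% of 6 control members. Just outside the rule, nuclei that held 2 of the genes and met every other condition numbered 196 in cOE and 110 in control, of which 13.3% and 8.18% lay in the leading cluster. Slit3 stood at 288 CPM in those cOE nuclei and 514 CPM in those control nuclei, against 1279 and 1599 CPM in members with 3 of the genes. Oc90 stood at 406 and 933 CPM just outside, and at 362 and 858 CPM in members with 3 genes, but at 59.4 and 309 CPM in members with 4.

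Otoa and Rspo2 were found together in most members. The rule counts both genes, so these shares are partly set by it and are given as a description. They do not show that the genes occur together beyond what the rule selects. Both genes had a UMI in 187 of 295 cOE members (63.4%, 57.6% to 68.9%) and in 64 of 110 control members (58.2%, 48.4% to 67.5%). Otoa without Rspo2 was seen in 86 and 36 members, and Rspo2 without Otoa in 22 and 10. After thinning to 1000 UMIs both were seen together in 24.6% and 24.8% of members, and 24.9% and 27.5% held neither.

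Otoa-only members differed from Rspo2-only members by at least 1.5-fold in the same direction in both libraries for 75 of 1614 genes counted on the higher side (4.65%) and 39 on the lower side (2.42%). Dkk2 led the higher side, with 714 CPM in Otoa-only against 169 CPM in Rspo2-only members of cOE, and 550 against 119 CPM in control. Frem2, a basement membrane protein, was higher too (log2 ratios 1.21 and 1.39). On the lower side, Lef1, a transcription factor of the Wnt pathway, had 123 against 325 CPM in cOE and 122 against 637 CPM in control. Col9a1, a chain of collagen IX, had 239 against 585 CPM and 209 against 478 CPM. Dkk2 was sparse in the leading cluster, with 6 UMIs in 63 Otoa-only (40.1 CPM) and 1 UMI in 13 Rspo2-only cOE members (39.5 CPM). Lef1 had the same UMIs there, 6 and 1, Frem2 had 1 and 0, and Col9a1 stood at 347 CPM in Otoa-only and 316 CPM in Rspo2-only cOE members, the opposite direction to all members. In control the leading cluster held 19 Otoa-only and 2 Rspo2-only members, too few for a comparison.

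Genes outside the rule were next compared between members and other nuclei. Each level is an average over a mixed set, so a high gene need not be shared by all members. Of 5356 genes with at least 20 member UMIs in each library, 49 (0.915%) were at least 4-fold higher in members than in other nuclei in both libraries, and 3 (0.056%) at least 4-fold lower. Cntn1, Slit3 and Srgap1 were among the highest. Cntn1 encodes a contactin anchored to the outer face of the plasma membrane. It had 687 CPM in cOE members against 48.8 CPM in other nuclei, and 598 CPM in control members against 38.7 CPM. Slit3, a secreted ligand of Robo receptors, had 2010 CPM against 175 CPM in cOE and 2552 CPM against 190 CPM in control. Slit3 had a UMI in 85.1% of cOE and 68.2% of control members. Outside the leading cluster its control level, given above, was below that of the other nuclei. Srgap1, which encodes a GTPase-activating protein of the Slit and Robo pathway, had 1451 against 171 CPM and 1102 against 129 CPM. These 3 genes were above the other nuclei by log2 ratios of 3.08 to 3.95.

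Nkain2, which encodes a membrane protein, was the most abundant of the 20 highest genes, at 5998 CPM in cOE members against 679 CPM in other nuclei, and 5881 against 483 CPM in control. Nfib, a nuclear factor I transcription factor, had 3042 against 442 CPM in cOE and 2500 against 437 CPM in control. Extracellular and basement membrane genes were also among the 20: Col4a3, an alpha chain of collagen IV (log2 ratios 2.76 in cOE and 2.65 in control), Smoc1, a secreted calcium-binding matrix protein (2.30 and 2.66), and Adamtsl1 (2.50 and 2.82). Pdgfc, a growth factor of the PDGF family, was higher by 2.60 and 2.93. Mgll, which encodes the lipase that breaks down the endocannabinoid 2-arachidonoylglycerol, was higher by 2.90 and 2.50. Gm11266 lies within the span of Nfib and Gm20713 within that of Gpc5, each on the opposite strand, and Tmem132cos is named as antisense to Tmem132c. The strand setting of the counting is not given in the sources used here, so the reads of such pairs cannot be told apart with certainty.

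**Figure D2:**
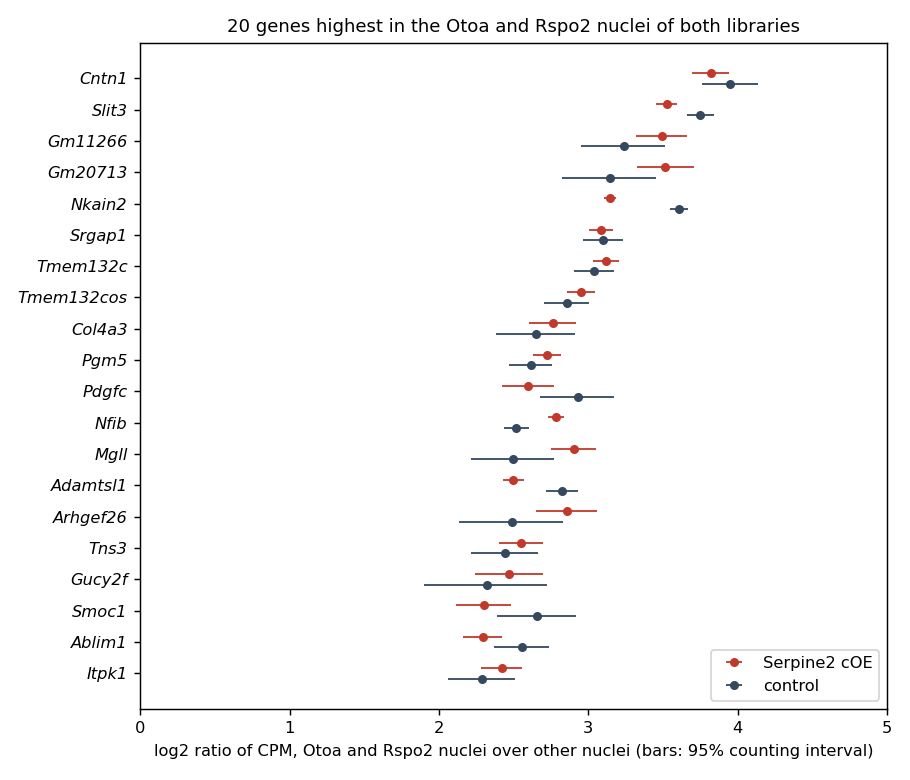
The 20 genes with the highest log2 ratio of CPM in Otoa/Rspo2 nuclei over other nuclei, ranked by the lower of the 2 libraries. Points are the Serpine2 cOE (red) and control (dark blue) libraries and bars are 95% counting intervals. The lowest point is at 2.29.

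The shares of nuclei agreed in direction after depth was made equal. Thinned to 1000 UMIs, 94.5% of cOE and 89.9% of control members had a Nkain2 UMI, against 12.7% and 12.6% of the macrophage nuclei. For Slit3 it was 71.7% and 54.1% of members, against 8.28% and 9.71% of macrophage nuclei. For Cntn1 it was 45.4% and 43.1%, against 1.27% and 2.91%. Unthinned, the Cntn1 shares were 66.8% and 64.5% of members, against 9.20% and 9.17% of macrophage nuclei.

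Many transcription factors of the otic epithelium were higher in members than in other nuclei. Of all genes counted, 9.24% were at least 1.5-fold higher in members in both libraries and 5.41% at least 1.5-fold lower. Of 29 factors counted, 13 were higher, among them Sox5, Sox6, Eya4, Tbx2 and Grhl2, and 3 were lower (Gata3, Pbx3 and Nr2f2). Their median log2 ratio was 0.68 in cOE and 0.65 in control, against -0.03 and 0.04 over all genes counted. Meis2, Lmx1a and Otx2 were among the 13, and these are genes found mostly outside the leading cluster. Of 11 deafness genes counted 6 were higher and 2 were lower (Tecta and Pou3f4). The higher ones included Slc26a4, encoding the anion exchanger pendrin, Col11a1, encoding a collagen XI chain, and Lmx1a.

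Other groups were split. In the adhesion and glypican list 4 of 25 genes were higher (Cadm1, Cdh1, Gpc3 and Ncam2) and 7 lower, with medians of -0.78 and -0.33. Basement membrane and collagen genes had 6 of 17 higher, including Col4a3, Col4a4 and Lama5, and 5 lower, including Fn1 and Tnc. Among tectorial membrane and matrix genes Otogl, Col9a2 and Col11a1 were higher, and Tecta and Tectb were lower, 3 and 2 of 11. Tectb, encoding beta-tectorin, had 282 CPM in cOE members against 1021 CPM in other nuclei, and 225 against 716 CPM in control. Serpine2 itself was lower in members, at 43.3 CPM in cOE against 88.4 CPM in other nuclei and 50.8 against 92.0 CPM in control.

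Ano1, a chloride channel that supports spontaneous activity in Kölliker's organ, divides these nuclei from their nearest neighbours in the rule. Nuclei that met every other condition but held Ano1 numbered 94 in cOE and 28 in control. They were deeper, with medians of 7530 UMIs in cOE and 9654.5 in control. Of 5377 genes counted, 239 (4.44%) were at least 1.5-fold higher in members in both libraries and 261 (4.85%) at least 1.5-fold lower. Cpa6, a carboxypeptidase, had 42.4 CPM in cOE members against 1489 CPM in the Ano1 nuclei, and 56.7 against 1519 CPM in control. Rorb, a nuclear receptor, had 17.1 against 441 CPM and 35.2 against 416 CPM. Rbm24, an RNA-binding protein of splicing, had 10.8 against 202 CPM and 25.4 against 278 CPM.

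On the higher side, Dmgdh, a mitochondrial enzyme of choline breakdown, had 69.4 against 8.08 CPM in cOE and 68.4 against 11.6 CPM in control, but 1 nucleus held 26 of its 77 cOE and 1 held 16 of its 35 control UMIs. Slit3 was higher in members by log2 ratios of 1.61 and 1.46. Slc26a4 had 65.8 against 24.3 CPM and 70.4 against 7.71 CPM, the lower figure resting on 2 UMIs. Otoa itself was 426 CPM in the cOE and 366 CPM in the control Ano1 nuclei, below the members' levels in both libraries. This is a description only, since Otoa helped to choose both sets and the Ano1 nuclei were deeper.

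The share of Otoa/Rspo2 nuclei was higher in Serpine2 cOE. Members were 2.79% of cOE nuclei (2.49% to 3.12%) and 1.25% of control nuclei (1.03% to 1.51%), a ratio of 2.23 (1.78 to 2.80). Inside the leading cluster the shares were 2.15% and 0.73%, a ratio of 2.94 (2.22 to 3.95). With the gate applied after thinning every nucleus to 1000 UMIs the ratio was 3.14 (2.19 to 4.60). The ratio was above 1 under all 12 alternative choices of filter, gate and clusters that were tried.

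Other gates moved by other amounts in these libraries. The nuclei of the same rule with Ano1 were 0.89% of cOE and 0.319% of control nuclei, a ratio of 2.79 (1.81 to 4.42). A pillar and Deiters cell gate had a ratio of 1.28 (1.01 to 1.63), a hair cell gate 0.979 (0.858 to 1.12) and a macrophage gate 0.621 (0.504 to 0.764). A share depends on how many of every other kind of nucleus were captured from each pool, and a change of the cells cannot be told apart from a difference in dissection between the pools.

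**Figure D3:**
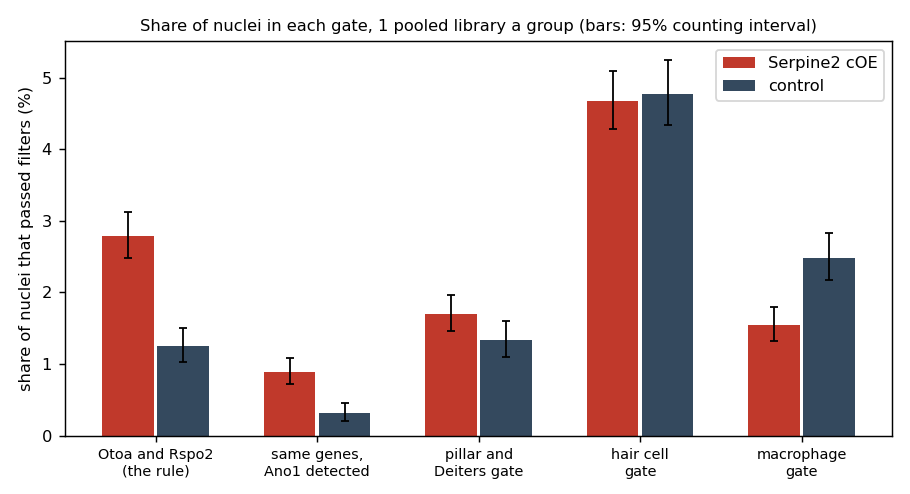
Share of nuclei that passed the filters (%) in 5 gates, Serpine2 cOE (red, left bar) and control (dark blue, right bar), 1 pooled library each, with 95% counting intervals. The Otoa/Rspo2 bars stand at 2.79% and 1.25% and the hair cell bars at 4.67% and 4.78%.

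Within the members, 685 of 6302 genes with at least 50 UMIs (10.9%) were at least 1.5-fold higher in cOE than in control and 507 (8.05%) at least 1.5-fold lower, with a median log2 ratio of 0.02. Inside the leading cluster 535 of 3944 genes (13.6%) were higher and 337 (8.54%) lower. With 1 library a group these counts hold counting error together with any difference. The targeted gene showed no clear difference: Serpine2 had 48 UMIs in cOE and 26 in control members, a log2 ratio of -0.23 (-0.95 to 0.52). Lgr5, whose locus drives the Cre, had 18 UMIs in cOE and 15 in control members (16.2 and 29.3 CPM), in 3.73% and 7.27% of nuclei. The macrophage gate had 40.3 and 39.2 CPM of Lgr5, in 7.98% and 9.63% of its nuclei, so Lgr5 in members was not above the macrophage level. Thinned to 1000 UMIs, 1.37% of cOE and 0.917% of control members held Lgr5, against 2.55% and 3.40% of macrophage nuclei. Serpine2 stood at 91.5 and 80.5 CPM in the macrophage gate, also above the members.

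Gene length went along with the ratio of cOE over control. Length was taken from the annotated start to end of 6295 of the 6302 genes. Of the 1574 shortest genes (0.348 to 22.5 kb) 25.03% were at least 1.5-fold higher in cOE members and 3.49% lower. Of the 1574 longest (105 to 2962 kb) 2.92% were higher and 16.5% lower. Over all these genes Spearman's rho between length and log2 ratio was -0.39, and it was -0.39 inside the leading cluster as well. It was -0.03 in the other nuclei as a whole, -0.24 in the macrophage gate, -0.17 in the Ano1 nuclei, -0.13 in the hair cell gate and -0.06 in the pillar and Deiters gate, over genes within the same libraries and with no test. The median mitochondrial share also differed, 0.366% of UMIs in cOE and 0.205% in control members. The part of gene length and of RNA quality in the results for single genes was not tested.

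**Figure D4:**
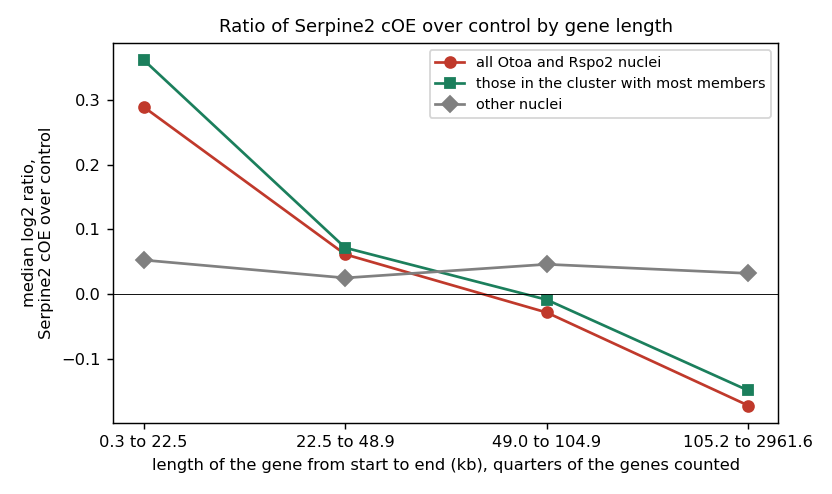
Median log2 ratio of Serpine2 cOE over control (vertical axis) for genes in 4 bins of gene length in kb (horizontal axis), in all Otoa/Rspo2 nuclei (red circles), those in the cluster with most members (green squares) and other nuclei (grey diamonds). In Otoa/Rspo2 nuclei the median lay at 0.29 for the shortest and -0.17 for the longest genes, and in other nuclei between 0.03 and 0.05.

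Short genes stood out among those highest in cOE members. The 12 highest ratios belonged to genes with a median length of 10.7 kb, against 120 kb for the 12 lowest. Fbxo2, an F-box protein that binds glycoproteins and is known in the cochlea, rested on the most UMIs. It had 402 UMIs in cOE and 53 in control members (363 and 104 CPM, log2 ratio 1.81, 1.39 to 2.25), and 2.16 inside the leading cluster. In other nuclei its ratio was 0.59. Macrophage nuclei had 202 CPM of Fbxo2 in cOE and 123 in control, so control members stood below the macrophage level. Gjb2, which encodes connexin 26 of the cochlear gap junctions and is mutated in common inherited deafness, had 71 UMIs in 59 cOE members and 7 UMIs in 7 control members. Its log2 ratio was 2.23 (1.11 to 3.59) in members, 1.53 inside the leading cluster and 0.58 in other nuclei. In cOE members Gjb2 was near the macrophage level, with 64.0 CPM and a UMI in 20.0% of members. The cOE macrophage nuclei had 68.3 CPM and 20.9%. After thinning, 7.51% of cOE members and 7.01% of cOE macrophage nuclei held Gjb2. In control it was 13.7 CPM and 6.36% of members, against 42.4 CPM and 13.3% of macrophage nuclei, and 0.917% against 2.91% after thinning.

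Klhl40, a kelch protein of muscle thin filaments, had 63.1 in cOE and 11.7 CPM in control members (log2 ratio 2.43, 1.23 to 3.92). Wnt9a, a Wnt ligand, had 90.2 and 25.4 CPM (1.83, 0.99 to 2.79). Rgcc, a regulator of the cell cycle, had 87.5 and 21.5 CPM (2.02, 1.12 to 3.07). All 12 of these genes were higher by at least 1.5-fold inside the leading cluster too, and 2 of them were so in other nuclei. In cOE 10 of the 12 stood above the macrophage level, Gjb2 and Dpm3 being the exceptions. The remaining 7 were Dpm3, Snrpc, Igf1os, Aif1l, 4933411O13Rik, Pcbp1 and Crip2, with log2 ratios of 1.71 to 2.91. Dpm3 had 3 UMIs in control, so its ratio of 2.91 runs from 1.28 to 5.24. 4933411O13Rik lies within Cadm2 on the opposite strand, and Cadm2 was used by the rule. Igf1os is named as antisense to Igf1, so its reads are uncertain too.

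The 12 lowest genes included Kctd16, Egr1 and Oc90. Kctd16, an auxiliary subunit of GABA-B receptors, had 36.1 CPM in cOE members and 149 in control members (log2 ratio -2.04, -2.63 to -1.47). In macrophage nuclei Kctd16 had 66.7 and 162 CPM, so the members stood below the macrophage level in both libraries. Egr1, an immediate early transcription factor, had 20.7 and 70.4 CPM (-1.76, -2.58 to -0.97), and -0.94 in other nuclei; macrophage nuclei had 41.9 and 66.7 CPM. Oc90 had 169 and 526 CPM (-1.64, -1.92 to -1.37). For Oc90 the ratio inside the leading cluster was -0.76, with an interval of -1.62 to 0.16 that includes 0.

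The other 9 were Rims2, 8030451O07Rik, 8030451A03Rik, Gm13269, 4930587E11Rik, Grid1, Mthfd1l, Plch1 and Gm28258, with log2 ratios of -1.94 to -1.51. Of the 12, 11 were lower by at least 1.5-fold inside the leading cluster, the exception being Gm13269 (-0.41, on 12 and 5 UMIs). In other nuclei 3 of the 12 were lower by at least 1.5-fold and 2 were higher. In both libraries 8 of the 12 stood at or below the macrophage level, and these 8 are not read as expression of the members. The macrophage gate was not cleared of other nuclei, so a level below it does not show that a gene was absent. Egr1, Oc90, Mthfd1l and Plch1 were above the macrophage level in control.

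Summed markers of other cell types differed between the members of the libraries as well. The 7 roof markers summed to 1581 in cOE and 2048 CPM in control members (log2 ratio -0.37, -0.48 to -0.26). The 10 neuronal markers summed to 326 and 453 CPM (-0.48, -0.72 to -0.23). Most of this sum was Syt1, which gave 267 of its 361 UMIs in cOE members and 180 of 232 in control. Syt1 was also widespread outside the members, where 62.6% (cOE library) and 62.4% (control library) of nuclei held it. The sum is therefore not read as a measure of neurons. The 7 melanocyte markers, of which Tyrp1 and Mlana were at 0 in both, summed to 144 and 258 CPM (-0.84, -1.18 to -0.49). The 8 endothelial markers had 189 and 285 CPM, with Ptprb at 0 in both. Higher in cOE were the 10 markers of Kölliker's organ, with 1688 and 1063 CPM (0.67, 0.53 to 0.81) and with Ano1, barred by the rule, and Crabp1 at 0 in both. Epyc, whose levels are given at the end, made up the largest part of this sum in both libraries. Erythroid markers were higher too, with 147 and 87.9 CPM (0.74, 0.26 to 1.25) and with Slc4a1 at 0 in both. In other nuclei these lists were also higher in cOE. Kölliker's organ markers had 2580 and 1837 CPM there, and erythroid markers 196 and 145 CPM. The roof sum, lower in cOE members, was higher in cOE in other nuclei (993 and 780 CPM). The part of these other cell types in the results for single genes was not tested.

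**Figure D5:**
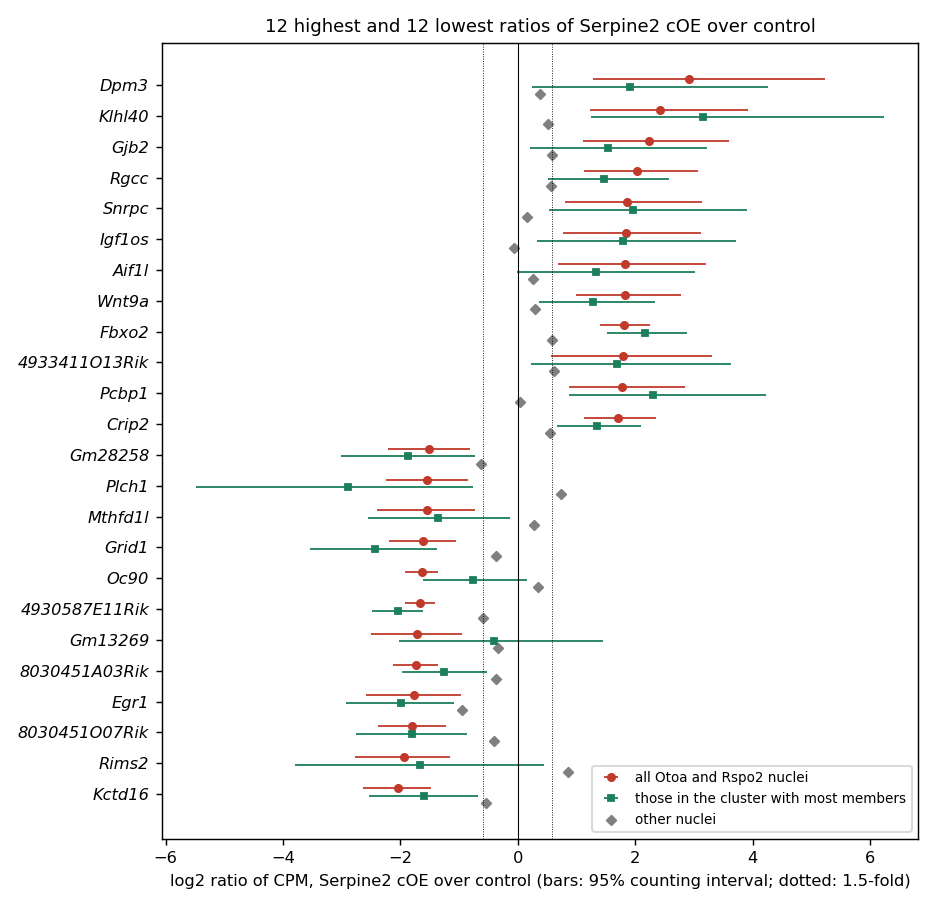
Log2 ratio of Serpine2 cOE over control (horizontal axis) for the 12 highest and 12 lowest genes: all Otoa/Rspo2 nuclei (red circles), those in the cluster with most members (green squares) and other nuclei (grey diamonds). Bars are 95% counting intervals and dotted lines mark 1.5-fold. Red and green lie on the same side of 0 for all 24 genes, while Rims2, Plch1, Mthfd1l and Oc90 lie above 0 in other nuclei.

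Some genes at least 4-fold higher in members than in other nuclei were shared in part with other epithelial gates. For Adamtsl1 members exceeded the Ano1 nuclei by log2 ratios of 0.64 (cOE) and 0.82 (control) only. For Cntn1, Nkain2 and Pgm5 this excess was 1.16 to 1.92. In the pillar and Deiters gate Pgm5 still reached 574 (cOE) and 498 CPM (control), below 978 and 897 CPM in members. Of these genes, Cntn1, Nkain2, Pgm5 and Adamtsl1 had log2 ratios of cOE over control between 0.03 and 0.20 in all members. Inside the leading cluster the same 4 genes had ratios between -0.33 and -0.26, so their sign depended on which members were counted. Otoa, which the rule used, is given as a description only: beside its levels over all members above, it had 1271 CPM in cOE members and 1719 in control inside the leading cluster. Slit3 was lower in both sets. Its ratio was -0.34 (-0.44 to -0.24) over all members, and -0.98 (-1.09 to -0.88) inside the leading cluster. Mgll had 409 and 240 CPM (0.77, 0.48 to 1.07), and 0.56 inside the leading cluster.

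The gene lists are read against all genes counted, of which 10.9% were higher and 8.05% lower. Over all lists 23 genes were higher and 29 lower. Inside the leading cluster 16 of the 23 and 16 of the 29 were past 1.5-fold in the same direction, while 1 and 7 had the opposite sign. In both libraries 5 of the 23 and 15 of the 29 stood at or below the macrophage level. Tectorial membrane and matrix genes had 2 of 11 counted genes higher in cOE and 1 lower, near the shares over all genes, with a median log2 ratio of 0.12. The higher ones were Col9a2, with 789 in cOE and 440 CPM in control, and Col11a2, with 354 and 231 CPM. Their ratios were 0.47 and 0.67 inside the leading cluster. Cdh23, a tip link cadherin, was the lower one (103 and 197 CPM), but inside the leading cluster it had 12 and 2 UMIs. Tecta, Otogl and Col11a1 had log2 ratios between -0.15 and 0.12, and Otogl was at -0.39 inside the leading cluster.

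In the gap junction and ion transport list 1 of 12 genes was higher, Gjb2, and 1 lower, the bicarbonate transporter Slc4a4 (40.6 and 70.4 CPM), whose ratio was 0.22 inside the leading cluster. The list median was 0.13. Of 9 calcium store and pump genes 0 were past 1.5-fold, with a median of 0.05, and Stim2 had a ratio of -0.44 that was -0.23 inside the leading cluster.

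The R-spondin and Wnt list had 3 of 22 genes higher and 2 lower, near the 10.9% and 8.05% over all genes, and a median of 0.08. Sfrp1, a secreted Wnt inhibitor, had 141 CPM in cOE members and 60.6 in control (log2 ratio 1.22, 0.65 to 1.82), and 0.89 inside the leading cluster. The receptors Fzd2 and Fzd7 were higher by 1.13 and 1.02 on 11 and 10 control UMIs. Nkd1, a feedback inhibitor of the pathway, had 101 and 199 CPM (-0.98, -1.38 to -0.58), and Lef1 had 125 and 213 CPM (-0.76, -1.14 to -0.39). Macrophage nuclei had 109 and 177 CPM of Nkd1 and 197 and 309 CPM of Lef1, so Lef1 was below the macrophage level in both libraries. In the leading cluster Nkd1 was at -1.36 and Lef1 at -0.72. With the gate applied after thinning Nkd1 was at 0.78. Axin2, a general target of the pathway, had 52.3 and 60.6 CPM, with an interval that includes 0.

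Of 25 BMP and TGF-beta genes 4 were higher and 2 lower (median 0.08), against 10.9% and 8.05% over all genes. Id1, a target of BMP signalling, had 290 CPM in cOE members and 147 CPM in control members. Id3, another such target, had 393 and 254 CPM. Their log2 ratios were 0.98 (0.62 to 1.36) and 0.63 (0.34 to 0.92), against 0.09 and 0.04 in other nuclei, and 0.91 and 0.44 inside the leading cluster. The ligand Bmp6 had 179 and 99.7 CPM (0.84, 0.39 to 1.31), but 0.53 (-0.07 to 1.18) inside the leading cluster, below 1.5-fold. Bmp4 was also past 1.5-fold (0.65), with an interval that includes 0. Ltbp1, which binds latent TGF-beta, was at -0.99 (-0.67 inside the leading cluster, -1.84 to 0.58) and the receptor Tgfbr2 at -0.72 (-0.17 inside the leading cluster).

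FGF and Erbb genes had 0 of 15 higher and 3 lower (median -0.22): Fgf12, Nrg3 and Fgf14. For 2 of them 1 control nucleus decided the value, with 46 of 53 Fgf12 UMIs and 48 of 50 Nrg3 UMIs. Of 8 Notch genes Notch1 (0.72) and Maml1 (0.66) were higher and 0 were lower, with a median of -0.08. Maml1 was at -0.089 inside the leading cluster and Notch1 at 0.74. With the gate applied after thinning Notch1 was at -0.38 (-1.24 to 0.54).

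Of 30 otic transcription factors 2 were higher in cOE, Tbx2 (264 and 150 CPM, log2 ratio 0.81) and Gata2 (1.25, on 12 control UMIs), with a median of 0.07. Dach1, Meis2 and Esrrg were lower, with log2 ratios of -0.69, -0.76 and -1.30. Dach1 was lower inside the leading cluster (-1.31, -1.76 to -0.86) and at -0.10 outside it. Meis2 had 3 UMIs in each library inside, and Esrrg was at -0.67 there, with an interval that includes 0. Tbx2 was at 0.89 inside.

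Cell adhesion and glypican genes were the list with the most genes on the lower side, 8 of 27 against 8.05% over all genes, with 2 higher and a median of -0.28. The lower ones were Cdh2, Cdh4, Cdh6, Gpc4, Gpc6, Lsamp, Ntm and Opcml, and the median length of the list was 297 kb against 48.9 kb over all genes. Cdh6 had 134 CPM in cOE members and 274 in control (-1.03, -1.37 to -0.68), and -1.10 inside the leading cluster. With the gate applied after thinning Cdh6 was at 0.045 and Opcml at 1.22. Of the 8, Cdh6 and Opcml (-1.43) were the only ones lower by at least 1.5-fold inside the leading cluster. Cdh2 was at -0.49, Gpc6 at -0.21 and Lsamp at -0.56 there, and Ntm (0.52), Cdh4 (0.70) and Gpc4 (0.65) had the opposite sign. Macrophage nuclei held 205 and 321 CPM of Cdh6, more than the members. The higher ones were Epcam, an adhesion molecule of epithelial cells (309 and 150 CPM, 1.04, 0.68 to 1.42), and Cldn9, a tight junction claudin (44.2 and 21.5 CPM, 1.04). In other nuclei Epcam and Cldn9 were higher in cOE by 0.78 and 0.80.

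Of 19 basement membrane and collagen genes 4 were lower, against 8.05% over all genes (median -0.27). Itga8, an integrin subunit, had 195 in cOE and 362 CPM in control (-0.89, -1.18 to -0.60), and Tnc, encoding tenascin-C, had 95.6 and 162 CPM (-0.76). Their ratios inside the leading cluster were -0.84 and -0.28. Macrophage nuclei had 366 and 552 CPM of Itga8, above the members. Fras1 and Col4a2 were the others lower, at -0.31 and 0.063 inside the cluster. Col4a3 and Col4a4 had ratios of 0.49 and -0.07 over all members, and 0.93 each inside the leading cluster.

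In the plasminogen and thrombin list, to which Serpine2 belongs, 2 of 9 genes were higher and 0 lower, against 10.9% and 8.05% over all genes, with a median of -0.05. Plat, the tissue plasminogen activator that Serpine2 can inhibit, had 45 UMIs in cOE and 10 in control members (40.6 and 19.5 CPM, log2 ratio 1.05, 0.05 to 2.21), against 34.1 and 23.3 CPM in macrophage nuclei. Tmprss3, a serine protease needed for hearing, was at 0.78 with an interval that includes 0.

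Of 7 genes of cell cycle exit 1 was higher, Cdkn1b, which encodes the inhibitor p27Kip1, with 109 CPM in cOE members and 52.8 in control (1.05, 0.44 to 1.71), and 1.41 inside the leading cluster. Macrophage nuclei had 102 and 67.8 CPM of it. Proliferation genes were near absent. At least 3 of 14 markers were asked for to call a nucleus proliferating, and 1 of 295 cOE members (0.339%) and 1 of 110 control members (0.909%) met this, against 0.331% and 0.508% of other nuclei. Among 5 immediate early genes (median 0.44) Egr1 and Fosb were lower (-1.76 and -1.02) and Jund was higher (0.59, 0.12 to 1.08), though at 0.19 (-0.38 to 0.79) inside the leading cluster. Fosb was lower in other nuclei as well (-1.28).

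Of 13 thyroid hormone and retinoic acid genes 1 was higher, Aldh1a1, a retinaldehyde dehydrogenase (356 and 215 CPM, 0.73, 0.42 to 1.05), and 2 were lower (median -0.02), near the shares over all genes. Aldh1a1 was at 0.50 (0.12 to 0.89) inside the leading cluster, below 1.5-fold. Slco1c1, a thyroid hormone transporter, had 87.5 in cOE and 205 CPM in control (-1.23, -1.64 to -0.82), and -1.71 inside the leading cluster, against 247 and 270 CPM in macrophage nuclei. Cyp26b1, which breaks down retinoic acid, had 16 and 35 UMIs over all members, 21 of the 35 in 1 nucleus, and 7 and 1 inside the cluster. Of 9 mitochondrially encoded genes 0 were past 1.5-fold over all members (median 0.12), but mt-Co2 was at 1.13 and mt-Co1 at 0.86 inside the cluster. In control 1 nucleus held 74 of the 215 mt-Co2 UMIs of the members. The remaining lists had medians of 0.10 over 14 deafness genes, of which 4 were higher and 0 lower, -0.16 over 4 hair cell genes and -0.37 over 3 genes of spontaneous activity.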

How the data were processed

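The deposited files hold raw UMI counts for each gene in each barcode, and their headers name Cell Ranger 8.0.1 as the authors' software. Per the submitters' processing notes STAR was used. The design text names the build GRCm39 and the notes mm10, and the strand and intron settings are not given in the sources used here. Gene positions and lengths came from GENCODE M39 on GRCm39, matched for 33185 of 33696 identifiers. Counts were summed per library and set of nuclei and scaled to CPM. Log2 ratios have exact conditional intervals, shares Clopper-Pearson intervals and sums Poisson intervals. Clusters (scanpy 1.11.5, 3000 variable genes, 50 components, 15 neighbours, Leiden resolution 1) and Scrublet scores served only for alternatives and the split of members. Another scaling used TMM factors of edgeR 4.0.16 (0.986 and 1.01).

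The members and gene lists were chosen with earlier results of these data known. Named were the rule's genes, the 12 highest and lowest ratios of cOE over control (50 UMIs, 10 nuclei, no nucleus above 25%), 20 identity genes, 8 genes each way for the Ano1 and Otoa comparisons, and list members past 1.5-fold or among the 4 most abundant. The interval computation was tested on simulated Poisson counts without clumping of UMIs in single nuclei. That check does not cover genes whose UMIs were clumped in this way. A few list genes are not reported here.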

Additional observations from a re-analysis of the deposited data

Results flagged for a closer look

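Some genes were at least 1.5-fold lower in cOE than in control Otoa/Rspo2 nuclei but at least 1.5-fold higher in cOE among the other nuclei. With 1 library a group the difference between the 2 sets of nuclei was not tested. Plch1, a phospholipase C, had a log2 ratio of -1.54 in Otoa/Rspo2 nuclei and 0.74 in other nuclei. Rims2, a scaffold protein of synaptic release sites, had -1.94 and 0.85. Fgf12 had -3.84 and 1.08, and Nrg3 had -5.76 and 1.81. For Fgf12 and Nrg3 a single control nucleus held 46 of 53 and 48 of 50 UMIs.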

How the results depend on the processing

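No paired analysis was possible because each group is 1 library. The share ratio of 2.23 was 3.14 with the gate after thinning, and, in alternatives chosen after seeing the data, 2.94 for members of the leading cluster and 3.07 for every nucleus of it. The count of 685 genes higher was 369 after gate thinning, 232 with members thinned, 1506 at a minimum of 20 UMIs and 314 at 100. The count of 507 lower was 255, 198, 1187 and 239 in these settings and 337 for members of the leading cluster. The 49 genes 4-fold higher than in other nuclei became 74 at a minimum of 10 UMIs a library and 79 for every nucleus of the leading cluster. Fewer genes reach the minimum in thinned or smaller sets. A called direction reversed as follows, and the cause was not tested. After gate thinning these were 8030451A03Rik (2.68), Cdh6 (0.045), Nkd1 (0.78), Notch1 (-0.38) and Opcml (1.22). With 4 of 6 genes they were Bmp4 (-0.25) and Cdh4 (0.39), and with a cap of 8000 UMIs Cdh4 (0.51) and Opcml (0.14). In clusters with at least 10% of members they were Cdh4 (0.31), Lsamp (0.00613) and Slc4a4 (0.088). For members of the leading cluster they were Cdh4 (0.70), Col4a2 (0.063), Maml1 (-0.089), Ntm (0.52) and Slc4a4 (0.22). For every nucleus of it they were Cdh2 (0.15), Cdh4 (0.59), Dach1 (0.00552), Maml1 (-0.27), Nrg3 (0.15) and Ntm (1.71). Genes under 20 UMIs in a setting were not compared. Depth limits the control side most, where 110 nuclei and 511664 UMIs stand behind every level.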

Other observations

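Trdn and Klhl40 are known from skeletal muscle, and other muscle genes were looked up after the leading cluster's genes had been seen. Myh6, a cardiac myosin heavy chain, had 42 UMIs in 37 cOE members and 13 UMIs in 13 control members. Triadin's partners of the calcium release apparatus were sparse. Ryr1 had 0 UMIs in both libraries, so that a level of up to 2.71 CPM (cOE) or 5.86 CPM (control) was not detectable. Ryr2 had 16 and 21 UMIs, Ryr3 had 5 and 3, and Casq2 had 7 and 5, while Trdn had 316 and 136. The 10 listed markers of Kölliker's organ summed to 1688 CPM in cOE members against 2580 CPM in other nuclei, and to 1063 against 1837 CPM in control. Ano1, barred by the rule and so at 0 in members, gave 590 and 397 CPM of the sums in other nuclei. The list's other genes were mixed, with Tecta, Tectb, Dcn and Calb1 lower in members in both libraries. Epyc, named after its values were seen, was higher. This gene, which encodes the proteoglycan epiphycan, had 936 CPM in cOE members against 266 CPM in other nuclei, and 496 against 146 CPM in control.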
